A study of Saccharomyces cerevisiae with 9 samples.

Results

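Yeast makes its own amino acids, and 38 genes of that task were followed here: the activator gene GCN4, 7 histidine genes, 7 lysine genes, 12 tryptophan and aromatic genes and 11 genes of the branched chain amino acids. The list was chosen with earlier results of these data known, and its genes were taken by symbol from the authors' full expression tables. Of the 38 genes, 37 were among 6321 genes tested with CdSe/ZnS and 37 among 6367 genes tested with InP/ZnS. LEU2 was not tested with InP/ZnS and is not analysed here for CdSe/ZnS.

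The cells were Saccharomyces cerevisiae of strain S288C, grown in SD-Glucose medium to mid-log phase. One group received no agent, one was given CdSe/ZnS at 10 µg/mL and one InP/ZnS at 100 µg/mL, with 3 libraries each and 6 h of incubation. These are quantum dots, semiconductor nanocrystals; both kinds have a zinc sulfide shell, around cadmium selenide or indium phosphide. Poly(A) RNA of whole cultures was sequenced, and since the labels name no separate cultures, p-values cover the spread among these libraries alone, which may be technical. The InP/ZnS dose is that of the design text, since the sample labels give the same number per mL in mg.

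Amino acid synthesis in yeast is under general control. When amino acids run short, the kinase Gcn2 senses uncharged transfer RNA, and translation of GCN4 messenger RNA rises through short reading frames in its leader. The Gcn4 protein then binds sites upstream of many synthesis genes and activates pathways well beyond that of the missing amino acid. Pathway regulators act beside it: Leu3 on branched chain genes and Lys14 on lysine genes, each with a pathway intermediate as a signal. Since Gcn4 is set mainly by translation, the GCN4 transcript level is no measure of the protein.

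Regulator sites were located in the R64 genome sequence by the RefSeq annotation, in windows from 250 bases before the start codon to 50 bases from it on. The Gcn4 core TGACTC, on either strand, lay in 19 of the 38 windows, or 50% of them, against 7.98% of 6001 protein-coding genes. It was in 6 of 7 histidine windows, 3 of 7 for lysine, 4 of 12 for the tryptophan and aromatic genes and 6 of 11 for the branched chain genes. The window of GCN4 itself held none. The longer form TGACTCA, which contains the core, was in 14 of the 38, or 36.8%, against 2.73% of all. In the tables, 21 members were called in at least 1 comparison, and 8 of these held the core. Those 8 are shown because their calls are described below, each as 30 bases read 5′ to 3′ on the gene's strand with the core, or its reverse complement, in capitals. For LYS1 and TRP2, which hold 2 cores, the one shown is the nearest that lies before the start codon.
HIS3 (chrXV:721812-721841, plus strand): ccacctagcggaTGACTCtttttttttctt
LYS1 (chrIX:420853-420882, minus strand): ttcagcgacaaaGAGTCAtaaagtcatcct
LYS12 (chrIX:187773-187802, minus strand): atattcttaagaTGACTCtaattagaggaa
TRP2 (chrV:337775-337804, plus strand): acagtgatttgcTGACTCattacgattttt
ARO1 (chrIV:704249-704278, plus strand): ttgtcatgcataTGACTCatcccgaacatg
LEU4 (chrXIV:426838-426867, minus strand): cttacgtgtaagTGACTCagttctttcaaa
ILV5 (chrXII:839376-839405, minus strand): gatgacctaactTGACTCaatggcttttac
BAT1 (chrVIII:517349-517378, plus strand): attgccttcttaTGACTCaaaattctattg

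The Leu3 site, searched as CCGG, any 2 bases and CCGG again, was the rarest, in 8 of the 6001 windows or 0.133%. In the branched chain group it lay in 3 of 11 windows, those of LEU1, LEU2 and BAT1, and in the windows of the other groups it was in none. LEU1 and BAT1 were called in opposite directions with CdSe/ZnS by the authors' q. Relative to the median of all genes, as described below, LEU1 stood at 0.75 and passed, while BAT1 stood at -0.19 and did not. With the trend of fold change with coding length removed, neither passed. Because of the authors' calls the 3 windows are shown, with the site in capitals.
LEU1 (chrVII:478850-478879, minus strand): aacgaaaattCCGGGACCGGcgaaatttgc
LEU2 (chrIII:91116-91145, plus strand): ggtgagagcgCCGGAACCGGcttttcatat
BAT1 (chrVIII:517375-517404, plus strand): attgtgtttgCCGGTACCGGcctttaagct

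The Lys14 site, searched as TCC, any 3 bases and GGA, was in 3 of 7 lysine windows, against 3.40% of all windows, and outside that group in the window of LEU9. LYS9 holds 2 such sites, of which the one nearer to the start codon is shown.
LYS1 (chrIX:420913-420942, minus strand): atttttttttTCCAGCGGAatttggaattc
LYS9 (chrXIV:715532-715561, minus strand): attgagaattTCCAATGGAattatcagcaa
LYS12 (chrIX:187795-187824, minus strand): ttcactttttTCCCGTGGAaaaatattctt

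The values analysed are the authors' FPKM (fragments per kilobase of gene, scaled to sequencing depth), with 1 value per gene and condition that pools the libraries. No value per library was used, so the depth is unknown. Each error is a standard error on the log2 scale, worked back from the authors' test statistic, with a median over the members of 0.25 for CdSe/ZnS and 0.27 for InP/ZnS. The tables call their conditions only q1 and q2; the second was read as exposed because the authors' lists of higher genes hold the genes with larger values there. The untreated level of a member was 1.10 to 1.25 times higher in the InP/ZnS table than in the CdSe/ZnS table, with a median of 1.16 beside 1.14 over 5623 genes. The labels give the same 3 untreated libraries for both tables, whose levels were scaled separately, so each comparison was read within its own table. In a bulk culture, fewer cells expressing a gene and less RNA per cell cannot be told apart.

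Most members, GCN4 included, were among the most abundant transcripts of untreated cells. With CdSe/ZnS as the comparison, 27 of the 37 stood above the 90th percentile of all tested genes, and 17 above the 95th. ILV6, the regulatory subunit of acetolactate synthase, was listed at 2882 FPKM untreated, HIS4 at 2873 FPKM and ILV5 at 2463 FPKM in the authors' table. The lowest were ARO7, chorismate mutase, at 50.8 FPKM and HIS6 at 63.7 FPKM. The median member was at 666 FPKM, and the median of all tested genes at 48.1 FPKM.

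**Figure D1:**
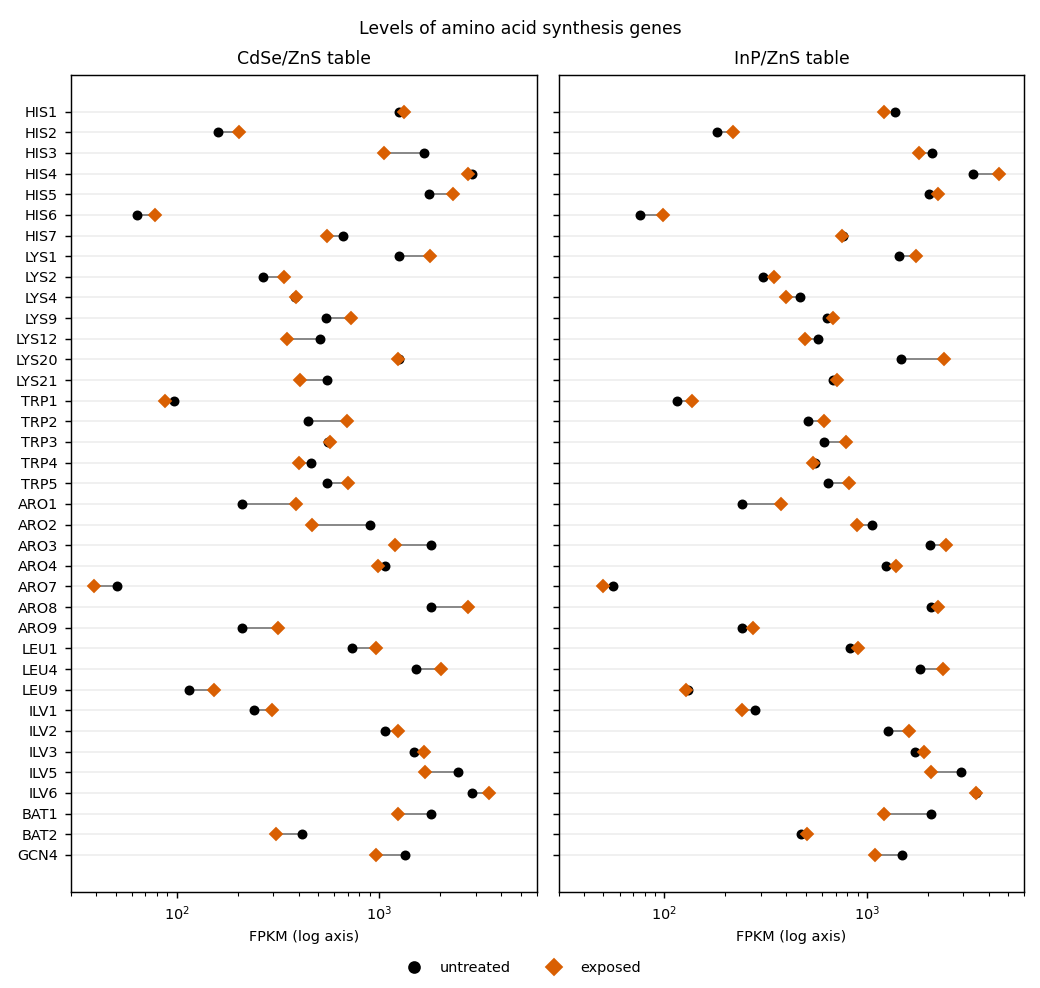
Level of 37 members as FPKM on a log axis in the CdSe/ZnS table (left) and the InP/ZnS table (right); circles are untreated, diamonds exposed, and each is 1 value pooled over 3 libraries with no error bar. In both panels HIS6, TRP1, ARO7 and LEU9 lie lowest, and HIS4 and ILV6 highest among the untreated values.

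LEU2, isopropylmalate dehydrogenase of the leucine branch, stood apart. In the InP/ZnS table it was listed at 0.107 FPKM untreated and 0.134 FPKM exposed and marked as not tested, while LEU1 and LEU4 of the same branch stood at 823 and 1837 FPKM untreated. URA3, a uracil synthesis gene that is no member and was looked up after this was seen, was listed at 0.103 and 0.472 FPKM there, and at 0 in both conditions with CdSe/ZnS. Both genes are widely used selection markers, missing from many laboratory derivatives of S288C. The labels name S288C with no marker mutation, and the genotype at these loci was not tested.

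The first comparison asked which synthesis genes differed after exposure to CdSe/ZnS. As many members rose as fell: 10 of 37 were higher and 10 lower by the authors' q under 0.05. Without the activator gene GCN4, 10 of 36 were higher and 9 lower. Among all tested genes 9.59% were higher and 43.6% lower, beside 27.0% and 27.0% of the members. ARO1, ARO8 and ARO9 of the aromatic pathway, TRP2, LYS1 and the leucine genes LEU1, LEU4 and LEU9 rose, while ARO2, HIS3, ARO3, ILV5, LYS12 and BAT1 fell furthest. The median log2 fold change was 0.09 for the members and -0.35 for all genes, so the whole table was shifted toward lower values.

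Relative to that median, with a normal test on the implied standard error, 15 members were higher and 1 lower, against 11.9% and 13.6% of all genes. All 10 genes called higher by the authors' q were among the 15, and ARO2 was the 1 lower gene. The other lower calls of the authors lay between -0.31 and -0.02 relative to the median and did not pass there. Fold change also followed coding length in this table, and with that trend removed 10 members were higher, 8 of them among the authors' calls, and 0 lower (10 were lower at an unadjusted Cuffdiff p under 0.05). The count of 15 still holds the length trend. The share of all tested genes that passed with the trend removed was not worked out, so those counts have no background beside them.

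In the histidine pathway, HIS2 rose and HIS3 fell, and 5 of 7 genes did not pass. HIS2, histidinol phosphatase on chromosome VI (203743 to 204750), went from 159 to 203 FPKM, a 1.27-fold rise (q = 0.0433) in the authors' deposited table. HIS3, imidazoleglycerol phosphate dehydratase, fell from 1671 to 1059 FPKM, and its log2 fold change was -0.66 ± 0.32 (q = 0.0213) in the authors' deposited table. HIS3 shares its table locus with DED1 and YOR203W, which makes its value uncertain. HIS4, the enzyme of several steps, stood at -0.07, HIS1, ATP phosphoribosyltransferase of the first step, at 0.09, and HIS7, the glutamine amidotransferase, at -0.27 in the authors' deposited table. HIS5, the aminotransferase, stood at 0.39 with q = 0.0535 there; against the all-gene median it was at 0.74 and passed. HIS6, an isomerase that shares a locus with RPB3 and other entries, stood at 0.30 with the widest error of the group, 0.37.

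Of the lysine genes 2 rose, 2 fell and 3 did not pass. The higher ones encode the last enzymes: LYS1, saccharopine dehydrogenase on chromosome IX (419615 to 420736), from 1259 to 1792 FPKM (1.42-fold, q = 0.00999), and LYS9, the saccharopine reductase on chromosome XIV (714048 to 715388), from 544 to 726 FPKM (1.34-fold, q = 0.0314), in the authors' deposited table. The lower ones, LYS12 and LYS21, encode enzymes of earlier steps. Relative to the all-gene median they stood at -0.20 and -0.10 and did not pass. LYS12, homoisocitrate dehydrogenase on chromosome IX (186517 to 187632), went from 510 to 349 FPKM, and its log2 fold change was -0.55 ± 0.23 (q = 0.00322) in the authors' deposited table. LYS21, a homocitrate synthase, fell from 554 to 406 FPKM at -0.45 (q = 0.0159) in the authors' deposited table. Its isozyme LYS20 stood at -0.00 and LYS4, homoaconitase, at 0.02. Reads of LYS20 and LYS21 are uncertain, since their coding sequences share 350 pieces of 80 bases. LYS2, aminoadipate reductase, stood at 0.34 with q = 0.0848. Set against the all-gene median it was at 0.69 and passed, but with the length trend removed it was at 0.23 and did not.

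Aromatic synthesis held both extremes among the members. ARO1, whose protein carries out the middle steps of the shikimate route as one chain, rose from 209 to 388 FPKM, 1.85-fold (q = 0.000173) in the authors' deposited table. It lies on chromosome IV (704484 to 709250), and 96.1% of all tested genes had a lower fold change. ARO2, chorismate synthase of the next step on chromosome VII (226399 to 227529), fell from 900 to 464 FPKM, and its log2 fold change was -0.96 ± 0.23 (q = 0.000173) in the same deposited table. Both passed the normal test as deposited and relative to the median, at 1.24 and -0.61; with the length trend removed ARO1 passed and ARO2 did not.

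At the entry to the pathway are ARO3 and ARO4, isozymes of the first enzyme that respond to different end products. ARO3 fell from 1814 to 1200 FPKM, a log2 fold change of -0.60 ± 0.26 (q = 0.00185) in the authors' deposited table, and ARO4 stood at -0.10 with q = 0.642. At the branch point, TRP2, anthranilate synthase of the tryptophan branch, rose 1.56-fold from 445 to 697 FPKM (q = 0.000771) in the authors' deposited table. ARO7, chorismate mutase of the branch to phenylalanine and tyrosine, fell from 50.8 to 39.2 FPKM, at -0.37 (q = 0.0448) there and -0.02 relative to the median. Both aminotransferase genes rose: ARO8 from 1803 to 2741 FPKM (1.52-fold, q = 0.00235) and ARO9 from 211 to 318 FPKM (1.51-fold, q = 0.00309) in the authors' deposited table. TRP2 and ARO9 each share a locus with an overlapping reading frame.

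Beyond TRP2 no tryptophan gene passed. TRP5, tryptophan synthase, stood at 0.35 with q = 0.0768. Its distance from the all-gene median was 0.70 and passed, but with the length trend removed it was at 0.54 and did not. TRP3, the other subunit of anthranilate synthase, stood at 0.03, TRP1 at -0.14 and TRP4 at -0.20 in the authors' deposited table.

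Among branched chain genes LEU1, LEU4 and LEU9 rose, BAT1, BAT2 and ILV5 fell, and 4 of 10 tested genes did not pass. LEU4, the main isopropylmalate synthase, went from 1516 to 2025 FPKM (1.34-fold, q = 0.0480), its isozyme LEU9 from 115 to 153 FPKM (1.33-fold, q = 0.0227) and LEU1, the isomerase on chromosome VII (476313 to 478652), from 733 to 971 FPKM (1.32-fold, q = 0.0445) in the authors' deposited table. Relative to the all-gene median LEU1, LEU4 and LEU9 all passed. With the length trend removed LEU9 passed, at 0.63, while LEU4, at 0.65, and LEU1, at 0.54, did not. LEU4 and LEU9 each share a locus with an overlapping reading frame. BAT1, the mitochondrial aminotransferase on chromosome VIII (517532 to 518713), fell from 1798 to 1239 FPKM and its cytosolic counterpart BAT2 from 417 to 311 FPKM, at -0.54 (q = 0.00663) and -0.42 (q = 0.0183) in the authors' deposited table. ILV5, the reductoisomerase on chromosome XII (838066 to 839253), which is also known for a role in keeping mitochondrial DNA, fell from 2463 to 1680 FPKM, at -0.55 ± 0.24 (q = 0.00426) in the authors' deposited table.

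The other isoleucine and valine genes did not pass as deposited. ILV1, threonine deaminase, stood at 0.29, ILV2, the catalytic subunit of acetolactate synthase, at 0.21, ILV3, a dehydratase, at 0.17 and ILV6 at 0.28 in the authors' deposited table. ILV1 and ILV6 passed the normal test relative to the median, at 0.64 and 0.63. With the length trend removed ILV6 passed, at 0.75, and ILV1, at 0.51, did not.

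GCN4, on chromosome V (138918 to 139763), fell from 1349 to 970 FPKM with CdSe/ZnS, a log2 fold change of -0.47 ± 0.24 (q = 0.0117) in the authors' deposited table. Relative to the median of all genes it stood at -0.13, and with the trend of fold change with coding length removed at 0.03.

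**Figure D2:**
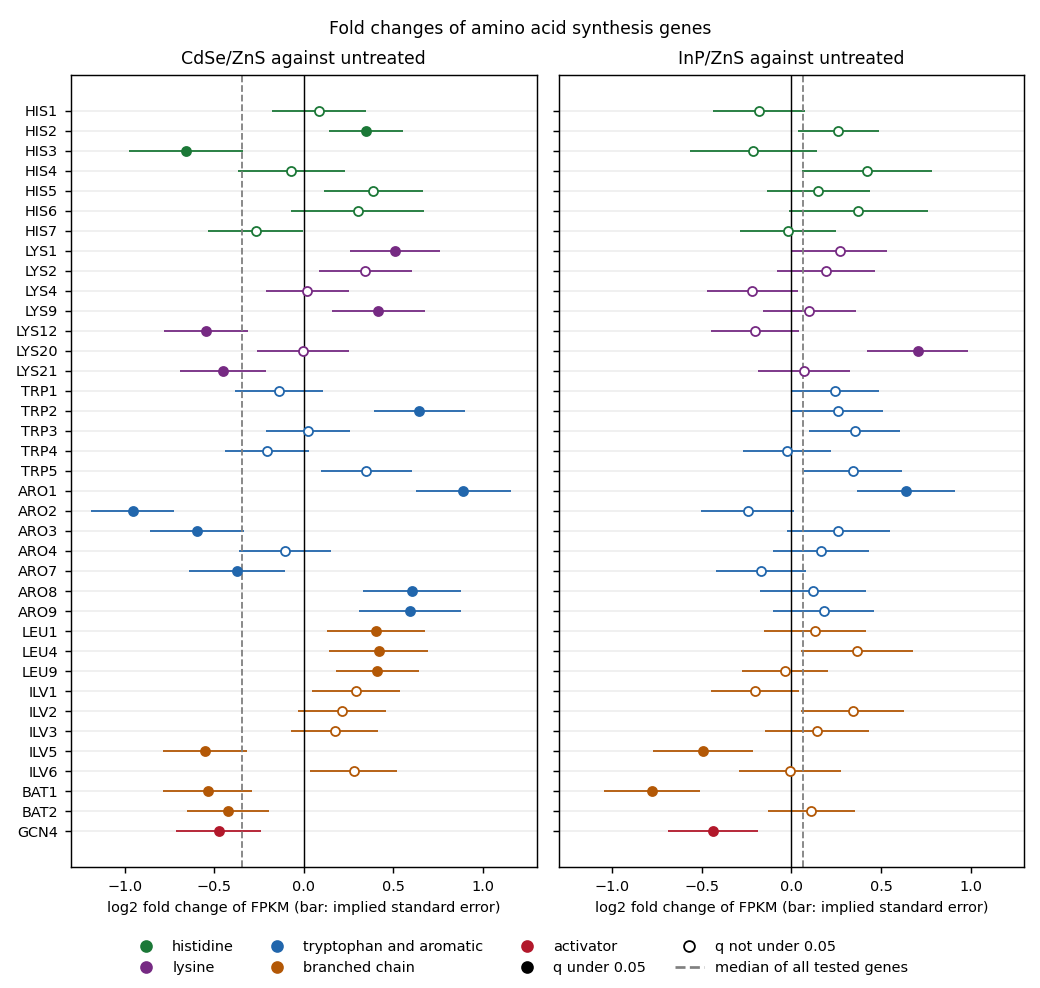
Log2 fold change of 37 members with CdSe/ZnS (left) and InP/ZnS (right) against untreated cells; points are the authors' values, bars the implied standard error, filled points have q under 0.05 and the dashed line is the median of all tested genes (-0.35 and 0.07). On the left 10 filled points lie on each side of 0, and on the right 2 lie above and 3 below.

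The deposited calls are more numerous than the test scores alone would give: by a normal test on the same fold changes only ARO1 and TRP2 were higher and ARO2 lower. The share of all tested genes that passed in this form was not worked out.

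Coding length and level move with fold change in the CdSe/ZnS table, so members were set beside genes alike in either. Of genes of 1000 to 2000 bp the median log2 fold change was -0.32, and 0.03 for the 23 members in that range. For 600 to 1000 bp the medians were -0.54 for all genes and -0.14 for 7 members. Above the 90th percentile of untreated level they were -0.70 for 633 genes and -0.00 for 27 members. With the length trend removed the members' median was 0.39, beside 0.43 relative to all genes; the part of level was not tested.

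**Figure D3:**
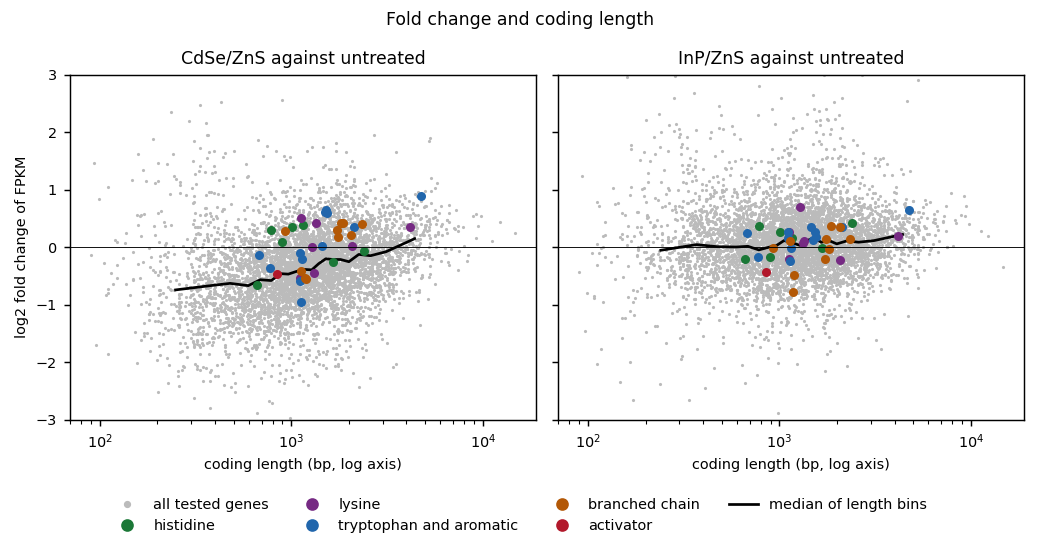
Log2 fold change against coding length in base pairs (log axis) with CdSe/ZnS (left) and InP/ZnS (right); grey points are all tested protein-coding genes within 3 of 0, coloured points the members, and the line joins medians of 20 length bins. With CdSe/ZnS the line climbs with length, and the 7 members of 600 to 1000 bp have a median of -0.14 beside -0.54 for all such genes.

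For InP/ZnS the question was the same. Few members differed: 2 of 37 were higher, 5.41% of the members against 23.9% of all tested genes, and 3 were lower, 8.11% against 17.2%. Without GCN4, 2 of 36 were higher and 2 lower. LYS20 and ARO1 rose, and BAT1, ILV5 and GCN4 fell. The median log2 fold change was 0.13 for the members and 0.07 for all genes. Fold change moved with level in this table too. Above the 90th percentile of untreated level the medians were 0.12 for 28 members and -0.23 for 637 genes. The part of level was not tested here either.

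LYS20, the homocitrate synthase of the first lysine step on chromosome IV (133437 to 134723), rose from 1469 to 2393 FPKM, 1.63-fold (q = 0.000252) in the authors' deposited table. Its coding sequence is 91.9% identical to that of LYS21, with 1 identical run of 278 bases, and 350 pieces of 80 bases, the shortest read kept, are in both, so reads of this pair are uncertain. The other 6 lysine genes did not pass: LYS4 stood at -0.22, LYS12 at -0.20, LYS21 at 0.07, LYS9 at 0.10, LYS2 at 0.19 and LYS1 at 0.27 in the authors' deposited table.

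ARO1 rose from 242 to 377 FPKM, 1.56-fold (q = 0.000474) in the authors' deposited table. The remaining aromatic and tryptophan genes did not pass, and ARO2 was lowest of them, with a log2 fold change of -0.24 (q = 0.197) there. TRP3 came nearest to the threshold at 0.35 with q = 0.0502, and TRP5 followed at 0.34 with q = 0.0658. ARO8 and ARO9, which rose with CdSe/ZnS, stood at 0.12 and 0.18 here, ARO7 at -0.17, TRP4 at -0.02, ARO4 at 0.17, TRP1 at 0.24 and both TRP2 and ARO3 at 0.26, all as log2 fold changes in the authors' deposited table.

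BAT1 had the largest fall of the members, from 2084 to 1215 FPKM, a log2 fold change of -0.78 ± 0.27 (q = 0.000252) in the authors' deposited table. It was the 1 member that passed the normal test, both as deposited and at -0.85 relative to the median. ILV5 fell from 2903 to 2063 FPKM, at -0.49 ± 0.28 (q = 0.0126), and GCN4 from 1487 to 1096 FPKM, at -0.44 ± 0.25 (q = 0.0122), in the authors' deposited table. The leucine genes LEU1, LEU4 and LEU9 stood at 0.13, 0.37 and -0.04 and BAT2 at 0.11 in the same deposited table, and none of these passed. The others of the group did not pass either, with ILV1 at -0.20, ILV6 at -0.01, ILV3 at 0.14 and ILV2 at 0.34.

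Of the 7 histidine genes 0 passed with InP/ZnS by the authors' Cuffdiff q, 0 had an unadjusted p under 0.05 and 0 passed the normal test. Their log2 fold changes ran from -0.21 for HIS3 to 0.42 for HIS4 in the authors' deposited table; HIS4 went from 3346 to 4483 FPKM with q = 0.104. HIS1 stood at -0.18, HIS7 at -0.02, HIS5 at 0.15, HIS2 at 0.26 and HIS6 at 0.37 there.

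The normal test relative to the median gave 0 higher and 1 lower members with InP/ZnS, against 7.87% and 8.32% of all genes, and LYS20 (0.64) and ARO1 (0.57) no longer passed; 6 members were higher at an unadjusted Cuffdiff p under 0.05. The doses of the quantum dots differ by a factor of 10 and the untreated cells are shared, so differences between the dots were not tested.

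Side by side, ARO1 stood at 0.89 ± 0.27 with CdSe/ZnS and 0.64 ± 0.27 with InP/ZnS in the authors' deposited tables, ILV5 at -0.55 and -0.49, BAT1 at -0.54 and -0.78 and GCN4 at -0.47 and -0.44. The all-gene medians of the tables differ, at -0.35 and 0.07. Relative to them ARO1 stood at 1.24 and 0.57, ILV5 at -0.20 and -0.56, BAT1 at -0.19 and -0.85 and GCN4 at -0.13 and -0.51. Of these values only ARO1 with CdSe/ZnS and BAT1 with InP/ZnS passed.

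Where 2 genes encode the same activity, the balance of the pair was read within each table. BAT1 exceeded BAT2 by 4.43 times untreated and 2.39 times with InP/ZnS, a difference of log2 fold changes of -0.89 ± 0.36, and by 4.31 and 3.99 times in the CdSe/ZnS table. LYS20 over LYS21 went from 2.17 to 3.37 with InP/ZnS and from 2.25 to 3.07 with CdSe/ZnS, each within 2 combined errors (0.63 ± 0.38 and 0.45 ± 0.35). ARO3 over ARO4 went from 1.70 to 1.21 with CdSe/ZnS (-0.49 ± 0.36) and from 1.66 to 1.78 with InP/ZnS. ARO8 stayed 8.17 to 8.62 times above ARO9, and LEU4 13.2 to 18.6 times above LEU9, over the conditions. These other pairs are 62.1% to 79.4% identical in coding sequence and share no piece of 80 bases.

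**Figure D4:**
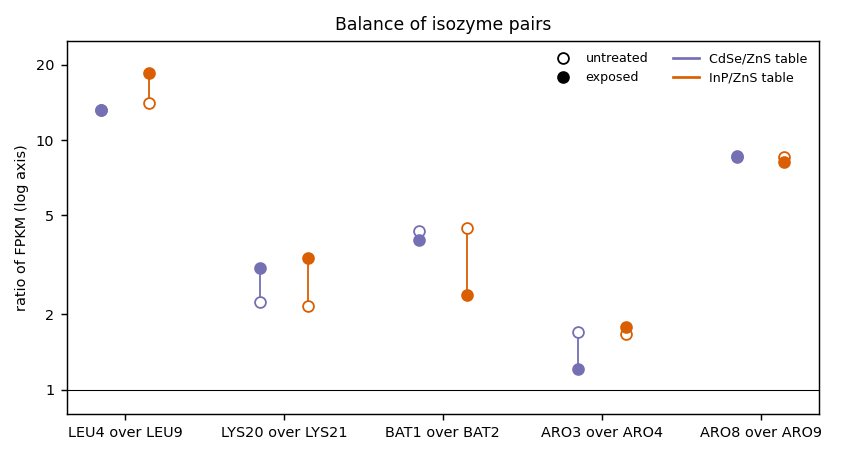
Ratio of FPKM between the genes of 5 isozyme pairs, on a log axis, untreated (open) and exposed (filled), in the CdSe/ZnS and the InP/ZnS table; each point is 1 pooled ratio with no error bar. The ratio of BAT1 to BAT2 goes from 4.43 to 2.39 with InP/ZnS, and those of ARO8 to ARO9 lie between 8.17 and 8.62.

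By the authors' q, holding a Gcn4 core did not go with 1 direction of change. With CdSe/ZnS, 4 of 19 members with the core were higher and 4 lower, with a median log2 fold change of 0.17. Of 18 members without it 6 were higher and 6 lower, with a median of 0.01. Among all tested genes 9.59% were higher and 43.6% lower. Relative to the all-gene median the 4 lower members with the core, HIS3, LYS12, ILV5 and BAT1, did not pass. Higher there were ARO1, HIS5, ILV1, ILV6, LEU4, LYS1, LYS2 and TRP2 with the core. Without it ARO8, ARO9, HIS2, LEU1, LEU9, LYS9 and TRP5 were higher and ARO2 lower. With the length trend removed, ILV1, LEU4, LYS2, LEU1, TRP5 and ARO2 no longer passed. With InP/ZnS the medians were 0.14 and 0.13, with 1 higher and 2 lower among the members with the core. Among those without it 1 was higher and 1 lower, and of all tested genes 23.9% were higher and 17.2% lower. Untreated levels were higher with the core, at a median of 1257 against 553 FPKM in the CdSe/ZnS table.

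Of 9 other genes of these pathways, 1 was higher and 1 lower with CdSe/ZnS, and 4 were higher and 0 lower with InP/ZnS by the authors' q, where 1 had an unadjusted p under 0.05 in the lower direction and 0 were lower by the normal test. The shares were 11.1% higher and 11.1% lower with CdSe/ZnS, beside 9.59% and 43.6% of all tested genes, and 44.4% higher with InP/ZnS, beside 23.9%. Relative to the median 0 of the 9 were higher with InP/ZnS, and with CdSe/ZnS 2 were higher and 0 lower. LYS5, which activates the Lys2 enzyme, rose 1.39-fold with CdSe/ZnS and 1.32-fold with InP/ZnS, and MKS1, a regulator, fell by 0.65 on the log2 scale with CdSe/ZnS in the authors' deposited tables. MKS1 stood at -0.30 relative to the median and did not pass there. LYS14, the lysine pathway activator, rose by 0.51 and LEU5, a mitochondrial carrier gene, by 0.60 on the log2 scale with InP/ZnS.

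In the general control apparatus, GCN2 rose and GCN3 fell with both quantum dots. GCN2, the sensor kinase, went from 18.9 to 37.2 FPKM with CdSe/ZnS (1.97-fold, q = 0.000173) and from 21.3 to 37.0 FPKM with InP/ZnS (1.74-fold, q = 0.000252) in the authors' deposited tables, and passed the normal test relative to the median in both. With the length trend removed it passed with CdSe/ZnS, at 0.83, but not with InP/ZnS, at 0.58. GCN3, the regulatory subunit of the exchange factor eIF2B, stood at -0.83 and -0.46 in the same deposited tables and did not pass relative to the median in either. Of the 11 genes of that list, 1 was higher and 5 lower with CdSe/ZnS, and 1 was higher and 1 lower with InP/ZnS. The CdSe/ZnS shares, 9.09% higher and 45.5% lower, lay near the 9.59% and 43.6% of all tested genes, and 0 of the 11 were lower relative to the median. With InP/ZnS both shares were 9.09%, beside 23.9% and 17.2%. GCD7, another eIF2B subunit, stood at -0.56 in the authors' deposited CdSe/ZnS table.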

How the data were processed

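RNA of 3 untreated, 3 CdSe/ZnS and 3 InP/ZnS libraries was sequenced. Per the deposited text sheets, reads lost bases of quality under 20 and their first 12 bases, those under 80 bp were dropped, and TopHat and Cufflinks were run on the S288C genome; no version, build or strand setting is stated in the sources used here. FPKM, log2 fold change, test score, p-value and q-value were used as deposited by the authors, from Cuffdiff per the submitters' processing notes, with 1 pooled value per gene and condition. The authors' lists of higher (606 and 1522) and lower genes (2759 and 1096) held the same genes as the full tables at q under 0.05, with the sign of the second condition over the first.

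A standard error was taken as log2 fold change over score. Fold changes as deposited, minus their median, or minus their trend with coding length (medians of 20 bins) were set against it in a normal test, 2-sided, Benjamini-Hochberg adjusted over all tested genes. The tests were first run on simulated data that held a trend with length. A limit on false calls was set there only for the form with that trend removed. The other forms keep such a trend. Start and end matched RefSeq R64 for 99.5% and 99.6% of entries alone at their locus; windows and identities were computed from R64 with Biopython 1.88, and the rest with Python 3.11.15, pandas 2.3.3 and SciPy 1.17.1. Members and lists were chosen with earlier results of these data known. All members were named, and from each other list up to 3 passing genes per table by smallest q, with ties to the larger fold.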

Additional observations from a re-analysis of the deposited data

How the results depend on the processing

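No paired analysis was possible because each table holds 1 pooled value per condition, and leaving out a library could not be run for the same reason. The counts of calls depended on the test. With CdSe/ZnS, 10 higher and 10 lower members became 5 and 5 at q under 0.01, 0 and 0 where the log2 fold change also had to reach 1 in size, 2 and 1 by the normal test as deposited, 15 and 1 relative to the median, and 10 and 0 without the trend with length; entries alone at their locus gave 6 and 9 of 29. With InP/ZnS, 2 and 3 became 2 and 1 at q under 0.01, 0 and 0 with the fold minimum, and 0 and 1 in each of the 3 normal tests. FPKM floors of 1 or 10 and a pseudocount of 1 changed no count. The members' median with CdSe/ZnS moved from 0.09 to 0.43 relative to all genes and to 0.39 without the trend; that of InP/ZnS stayed between 0.02 and 0.13. The cause was not tested.

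Direction turned with CdSe/ZnS, relative to the median, for ARO4 (0.24), HIS4 (0.28), HIS7 (0.079), LYS20 (0.34), TRP1 (0.21) and TRP4 (0.14). Without the trend with length it turned for ARO4 (0.30), ARO7 (0.21), GCN4 (0.034), HIS4 (0.068), LYS20 (0.39), TRP1 (0.45) and TRP4 (0.19) there, and with InP/ZnS for ARO8 (-0.037) and LYS2 (-0.0090). Of these, ARO7 and GCN4 were called by the authors' q.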

Other observations

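Among 9 amino acid permease genes, AGP1 and BAP3 fell with both quantum dots. AGP1, a permease of broad range, went from 578 to 188 FPKM with CdSe/ZnS and from 662 to 280 FPKM with InP/ZnS in the authors' deposited tables, log2 fold changes of -1.62 ± 0.24 and -1.24 ± 0.26. BAP3, a permease for branched chain amino acids, went from 313 to 82.7 FPKM and from 370 to 174 FPKM, at -1.92 ± 0.23 and -1.09 ± 0.24 in the same deposited tables. Both passed the normal test relative to the median in both tables. TAT2, a tryptophan and tyrosine permease, stood at -0.53 (log2) in the authors' deposited CdSe/ZnS table, but lay at -0.19 relative to the median and did not pass there. Of 9 permease genes, 1 was higher and 4 lower with CdSe/ZnS, and 0 were higher and 2 lower with InP/ZnS by the authors' Cuffdiff q; 0 of them were higher with an unadjusted p under 0.05 or by the normal test there. The CdSe/ZnS shares, 11.1% higher and 44.4% lower, lay near the 9.59% and 43.6% of all tested genes, and the 22.2% lower with InP/ZnS stood beside 17.2%. The median log2 fold change of the 9 with CdSe/ZnS was -0.34, beside -0.35 for all genes.

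In families fed from glutamate, aspartate and serine, 17 genes were tested. With CdSe/ZnS 1 was higher and 5 lower, and with InP/ZnS 3 were higher and 4 lower. These are 5.88% and 29.4% with CdSe/ZnS, beside 9.59% and 43.6% of all tested genes, and 17.6% and 23.5% with InP/ZnS, beside 23.9% and 17.2%. GLN1, glutamine synthetase, went from 2221 to 873 FPKM and from 2687 to 1422 FPKM in the authors' deposited tables, log2 fold changes of -1.35 ± 0.23 and -0.92 ± 0.26. SER2, phosphoserine phosphatase, stood at -1.69 and -0.65 and ASN1, an asparagine synthetase, at -1.01 and -0.68 in the authors' deposited tables. Relative to the median GLN1 and SER2 passed in both tables. ASN1 passed with CdSe/ZnS, at -0.66, but not with InP/ZnS, at -0.75. By that test 3 of the 17 were higher and 3 lower with CdSe/ZnS, and 0 were higher and 3 lower with InP/ZnS. THR1, homoserine kinase, fell by 0.75 with InP/ZnS and stood at -0.16 with CdSe/ZnS.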
